A study of Mus musculus with 9 samples.

Results

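Oxidative phosphorylation genes were examined in semi-mature CD4 single-positive (SP4) thymocytes that differed in the brightness of a Nur77-eGFP reporter. The members were the rows whose symbol names a subunit or a close relative of a respiratory complex (Nduf, Uqcr, Sdh, Atp5, Cox4 to Cox8, and the mitochondrial mt-Nd, mt-Co, mt-Atp and mt-Cyt genes), without symbols marked as pseudogenes by -ps, and with a mean of at least 1 TPM (transcripts scaled to the same total in every sample) over the 9 samples. Of 41978 genes listed, 112 symbols matched and 106 reached that mean. Of these, 95 were nuclear genes and 11 were encoded by mitochondrial DNA.

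All 9 samples came from thymi of mice carrying the Nur77-eGFP BAC transgene, in which eGFP is driven by the regulatory region of Nr4a1, the immediate early gene that encodes Nur77 and is induced by T cell receptor signalling. Mice used in the study were 3 to 10 weeks old and were on a C57BL/6 background. Live CD25- CD69+ CD24+ CD4+ CD8- thymocytes were sorted into the dimmest (GFPlo), middle (GFPmed) and brightest (GFPhi) gates, each holding about 10% of the GFP distribution, with 10000 cells and 3 biological replicates per gate. Which mouse gave which sample is not stated, so the p-values measure the spread among these samples. In bulk samples such as these, fewer cells of a type and less RNA per cell cannot be told apart.

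The respiratory chain of the inner mitochondrial membrane passes electrons from NADH through complex I, or from succinate through complex II, to ubiquinone, complex III, cytochrome c and complex IV, and the proton gradient that this builds drives ATP synthase. Most subunits are encoded in the nucleus and imported, while a small core set is encoded by mitochondrial DNA and transcribed inside the organelle as long polycistronic RNAs. Thymocytes use the chain for ATP and for the redox balance that proliferation and selection require, and cytochrome c is also the signal that couples mitochondria to caspase activation.

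The samples held between 7465552 and 14943774 reads on genes. Nr4a1, whose regulatory region drives the reporter, was at 217 ± 32.1 TPM (SD, n = 3) in GFPlo, 374 ± 28.6 in GFPmed and 840 ± 75.0 in GFPhi. The 8 markers of CD4 single-positive thymocytes summed to between 5519 and 6611 TPM in every sample of every gate, and 1 of the 8 passed as lower in GFPhi. Single markers were less steady than the sum. Mean Cd69 was 375 TPM in GFPlo and 216 in GFPhi, and Zbtb7b 175 and 108. Trac, at 1711 and 1998 TPM, and Cd3d, at 1548 and 1576, went the other way. The 4 regulatory T cell markers (Foxp3, Il2ra, Ctla4 and Ikzf2) summed to between 9.76 and 10.4 TPM in GFPlo, 11.9 and 14.5 in GFPmed, and 50.9 and 60.4 in GFPhi, and all 4 passed the test as higher in GFPhi than in GFPlo. Their part in the differences described below was not tested. Of 4 double-positive thymocyte markers tested, 2 were lower in GFPhi, and the 5 listed summed to between 21.4 and 30.5 TPM there against 43.6 to 44.3 in GFPlo. No B cell, myeloid or erythroid marker passed. The 5 B cell markers summed to 232 to 236 TPM in GFPlo and 121 to 180 in GFPhi, most of it Ighm. Aire and Itgam stayed under 1 TPM in every sample. Of 3 epithelial markers tested 1 passed, Epcam, higher in GFPhi at 8.78 against 2.79 TPM in GFPlo. Krt14 went the other way, at 1.19 TPM in GFPhi against 2.57 in GFPlo, and Krt8 was at 1.03 against 0.72.

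The deposited TPM were scaled by the mean genomic span of the annotated transcripts of each gene, introns included. Levels were therefore compared between genes only after the reads had been rescaled to exonic length. On that exonic scale, averaged over 9 samples, mt-Cytb stood highest at 2470 TPM, followed by mt-Nd1 at 1627 and mt-Co1 at 1155. mt-Cytb is the cytochrome b core of complex III, mt-Nd1 a membrane subunit of complex I and mt-Co1 the catalytic subunit of complex IV. The nuclear member with most exonic TPM was Atp5b, the catalytic beta subunit of ATP synthase, at 819 ± 103 (SD over 9 samples). It was the highest of its complex, as Cox6a1 was in complex IV at 671 ± 89.6, Ndufa1 in complex I at 446 ± 59.7, Uqcr10 in complex III at 347 ± 43.4 and Sdha, the flavoprotein of succinate dehydrogenase, in complex II at 306 ± 16.7. Median exonic levels were 122 TPM for the nuclear subunits of complex I, 254 for complex II, 217 for complex III, 191 for complex IV and 161 for ATP synthase, against 33.6 for the assembly and associated factors. Single members ranged from 15.8 to 446 TPM in complex I, 57.1 to 306 in complex II, 145 to 347 in complex III, 8.41 to 671 in complex IV and 26.4 to 819 in ATP synthase, so the complexes overlapped.

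**Figure D1:**
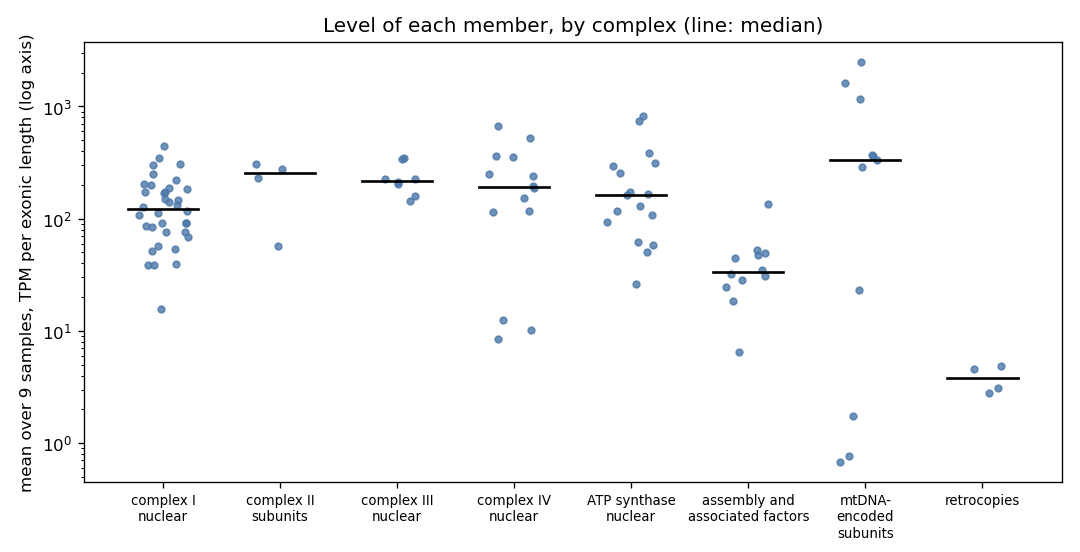
Mean level of each of the 106 members over the 9 samples, as TPM rescaled to exonic length on a log axis, grouped by complex, with a line at the median of each group. Nuclear subunits of the 5 complexes lie between 8.41 and 819 TPM, assembly factors lie lower with a median of 33.6, and the mitochondrially encoded genes run from 0.672 to 2470.

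Several subunits exist as tissue isoforms, and the ubiquitous form was the more abundant in each pair, again on the exonic scale. Cox4i1, the common form of subunit 4, was at 362 TPM and Cox4i2, the lung form, at 10.2. Cox6b1 was at 525 TPM against 8.41 for Cox6b2, a testis form, and Cox8a at 357 against 12.5 for Cox8c. Cox6a2 and Cox7a1, the heart and muscle forms of their subunits, fell under the limit on the mean, at 0.595 and 0.966 deposited TPM. Of the 3 genes for the c subunit of the ATP synthase ring, which encode the same mature protein, Atp5g3 was at 316 TPM, Atp5g1 at 62.1 and Atp5g2 at 50.4. Ndufa4, once assigned to complex I and now to complex IV, was at 248 TPM, and its hypoxia-induced paralog Ndufa4l2 was under the limit at 0.801 deposited TPM. The members just above the limit were mt-Co2 at 1.18, Sdhaf3 at 1.20 and mt-Atp6 at 1.33 deposited TPM. The limit rests on the deposited length: Ndufaf2, a complex I assembly factor left out at 0.495 deposited TPM, had 828 reads in all and 10.6 exonic TPM, more than the member Sdhaf3 at 6.48. Of the exonic bases of Ndufaf2, 65.65% lie in B230220B15Rik on the other strand. As the kit does not keep strand, those reads cannot be assigned to Ndufaf2 with certainty.

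The main question was whether the level of these genes differs with reporter brightness. Between GFPhi and GFPlo they passed the test no more often than all genes did. A linear model (limma) was fitted to log2(TPM + 1) of 30693 genes in the 9 samples, and a gene passed at an adjusted p (Benjamini-Hochberg) of at most 0.05. All 106 members were tested. In GFPhi against GFPlo 2 members passed as higher, or 1.89% of them where 2.38% of all genes did, and 1 passed as lower, or 0.943% where 1.51% did. These were Sdhaf1 and Cox7a2l, higher, and Atp5b, lower. An unadjusted p under 0.05 was found for 15 members (14.2%), where 13.8% of all genes had one. The median log2 fold change over the members was 0.05 with 61 of 106 above 0, against a median of -0.09 and 40.6% above 0 over all genes tested. With a further limit of 1 on the absolute log2 fold change, as the study used, 1 member was higher (where 1.26% of all genes were) and 0 lower (0.404%) in GFPhi against GFPlo. The sign of the members' median rested on the libraries used: it ran from -0.06 without GFPlo replicate 1 to 0.15 in limma-voom on the reads with the size factors of the authors.

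For most members the intervals of the model bounded the change on the log2(TPM + 1) scale. The 95% confidence interval of the log2 fold change lay wholly within 1 of 0 for 97 of the 106, and within 0.5 for 54. Over all genes tested the first share was 45.4%. The median standard error was 0.15 for the members and 0.33 for all genes. How far this rests on the level of the members was not tested. The added 1 also draws low deposited TPM towards no change. Sdhaf3, at 1.20 deposited TPM, had a fold of the means of 0.775 and a log2 fold change of -0.20. The GFPhi samples lay all above the GFPlo samples for 11 members (10.4%, where 8.26% of all genes did) and all below for 7 (6.60%, where 9.92% did).

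**Figure D2:**
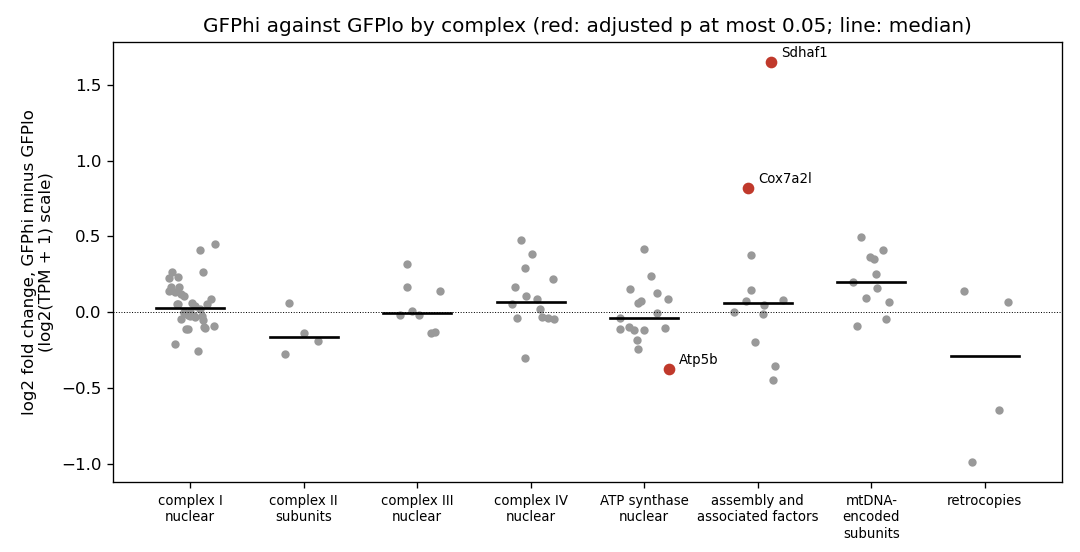
Log2 fold change of each member in GFPhi against GFPlo on the log2(TPM + 1) scale, grouped by complex, with a line at each median. Sdhaf1 at 1.65, Cox7a2l at 0.82 and Atp5b at -0.37, in red, had an adjusted p of at most 0.05; group medians lie between -0.29 for the retrocopies and 0.20 for the mitochondrially encoded subunits.

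The other contrasts held fewer calls. In GFPhi against GFPmed 1 member, Sdhaf1, passed as higher (0.943% of the members, where 0.899% of all genes did). None passed as lower by limma, where 0.609% of all genes did, and limma-voom called 0 or 1 by the scaling used. An unadjusted p under 0.05 in that direction was found for 3 of 106 members and for 1809 of all 30693 genes. In the higher direction it was found for 6 members and for 1449 of all genes. The GFPhi samples lay all above the GFPmed samples for 11 members (7.11% of all genes did) and all below for 5 (9.41%), and with the fold limit 0 were called by limma (0.541% of all genes higher and 0.15% lower). In GFPmed against GFPlo limma and limma-voom called 0 members in either direction, where 0.0717% of all genes passed as higher and 0.00326% as lower, and 2 members (1.89%) had an unadjusted p under 0.05, where 4.67% of all genes did. GFPmed lay wholly above GFPlo for 1 member (5.55% of all genes did) and wholly below for 1 (4.7%). The fold limit left 0 members in this contrast too (0.0554% of all genes higher and 0.00326% lower). The 3 contrasts share samples, so their values are given side by side and not as repeats.

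Complex I, the NADH dehydrogenase, was represented by 36 nuclear subunits. None passed in any contrast by limma, and in GFPhi against GFPlo their log2 fold changes ran from -0.26 to 0.45 with a median of 0.03 and 21 above 0. The interval lay within 1 of 0 for all 36. Ndufa1, the small accessory subunit with most exonic TPM, was at 71.0, 107 and 91.9 TPM in GFPlo, 76.0, 99.8 and 99.2 in GFPmed, and 84.1, 104 and 90.0 in GFPhi. The gates overlapped fully, with a log2 fold change of 0.06 ± 0.17 (SE) in GFPhi against GFPlo.

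Core subunits of complex I carry its flavin and iron-sulfur clusters. Ndufv1, which binds the flavin, stood at 165 to 189 TPM in GFPlo, 167 to 178 in GFPmed and 160 to 192 in GFPhi, and its log2 fold change was 0.00 ± 0.08 (SE). Ndufs1, an iron-sulfur subunit, had a log2 fold change of -0.03 ± 0.10. These 2 and the following genes were picked after their values were seen. Ndufa11 and Ndufa6, both accessory subunits, had GFPhi samples above all others. Ndufa11 was at 57.0, 66.7 and 77.3 TPM in GFPlo, 65.9, 69.5 and 75.2 in GFPmed, and 84.9, 100.4 and 89.2 in GFPhi, a log2 fold change of 0.45 ± 0.12 in GFPhi against GFPlo with an adjusted p of 0.107. Ndufa6 changed by 0.41 ± 0.12 with an adjusted p of 0.148. Ndufab1, the mitochondrial acyl carrier protein, and Ndufa10 had GFPhi samples below all GFPlo samples, with log2 fold changes of -0.26 and -0.21 that did not pass.

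Complex II, succinate dehydrogenase, is encoded wholly in the nucleus and links the chain to the citric acid cycle. None of its 4 subunits passed in any contrast. Sdha was at 217 ± 9.59 TPM in GFPlo, 226 ± 4.88 in GFPmed and 227 ± 23.3 in GFPhi (SD, n = 3). Sdhb, which holds the iron-sulfur clusters, gave a log2 fold change of -0.28 ± 0.12 in GFPhi against GFPlo, with 66.3, 80.4 and 82.9 TPM in GFPlo, 67.8, 74.3 and 74.1 in GFPmed, and 56.2, 71.6 and 61.2 in GFPhi. The gates overlapped and the adjusted p was 0.355.

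Complex III, the cytochrome bc1 complex, had 8 nuclear members, none of which passed in any contrast. Their median log2 fold change in GFPhi against GFPlo was 0.00, with a range from -0.13 to 0.32. Uqcr10, a small subunit and the most abundant by exonic length, was at 152 ± 24.5 TPM in GFPlo, 148 ± 20.3 in GFPmed and 169 ± 14.1 in GFPhi. Uqcrc1, the large core protein, was at 265 to 292 TPM in GFPlo and 259 to 319 in GFPhi, a log2 fold change of -0.02 ± 0.09. Uqcrh, the hinge protein, had GFPhi samples above all others, at 75.9, 83.3 and 80.8 against 53.6, 66.2 and 73.9 TPM in GFPlo, and its log2 fold change of 0.32 ± 0.14 did not pass (adjusted p = 0.389).

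Complex IV, cytochrome c oxidase, reduces oxygen to water. Its 14 nuclear members had a median log2 fold change of 0.07 in GFPhi against GFPlo, 9 were above 0, and none passed in any contrast. Cox6a1 was at 209, 273 and 302 TPM in GFPlo, 193, 255.6 and 263 in GFPmed, and 236, 269 and 249 in GFPhi, with full overlap. Cox4i1 was at 210 to 272 TPM in GFPlo and 251 to 268 in GFPhi, a log2 fold change of 0.05 ± 0.10. Cox5b, Cox7c and Cox8a, 3 small subunits named after their values were seen, had GFPhi samples above every GFPlo and GFPmed sample, with log2 fold changes of 0.29 ± 0.13, 0.38 ± 0.16 and 0.48 ± 0.21. Cox8a was at 97.2, 153 and 173 TPM in GFPlo, 126, 162 and 163 in GFPmed, and 175, 207 and 192 in GFPhi. GFPlo replicate 1 stood apart from the other GFPlo samples in this gene, and none of the 3 passed, at adjusted p of 0.410, 0.349 and 0.376. Cox8c, on 152 reads in all, ranged from 1.66 to 17.05 TPM within GFPlo alone.

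ATP synthase had 17 nuclear members, and Atp5b was lower in GFPhi. Atp5b was at 2453, 2880 and 2785 TPM in GFPlo, 2570, 2588 and 2573 in GFPmed, and 2000, 2161 and 2090 in GFPhi. All 3 GFPhi samples lay below the 6 others, while GFPlo and GFPmed overlapped. The fold of the means in GFPhi over GFPlo was 0.770, the log2 fold change -0.37 ± 0.07 and the adjusted p 0.0222, on 7939 to 15984 reads per sample. In GFPhi against GFPmed the log2 fold change was -0.31 with an adjusted p of 0.0832. The direction was the same in all 22 alternative settings, with log2 fold changes from -0.44 to -0.27, but the call held in 10 of them. It was lost with only the compared gates in the fit (adjusted p = 0.128), without the mean-variance trend (0.174), with median-of-ratios scaling at -0.29 (adjusted p = 0.727), limma-voom with the size factors of the authors at -0.27 (0.647), in the fit without replicate 1 of any gate at -0.41 (0.077), and in 7 of 9 fits that left out 1 library, GFPlo replicates 2 and 3, GFPhi replicates 1 and 3 and each GFPmed replicate, at adjusted p from 0.0509 to 0.0943.

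The partner of Atp5b in the catalytic hexamer, the alpha subunit Atp5a1, was at 656, 695 and 722 TPM in GFPlo, 641, 666 and 670 in GFPmed, and 592, 694 and 652 in GFPhi, a log2 fold change of -0.10 ± 0.07 that did not pass. The ratio of Atp5b to Atp5a1, chosen after these values were seen, was 3.91 ± 0.21 in GFPlo, 3.91 ± 0.09 in GFPmed and 3.23 ± 0.13 in GFPhi (SD, n = 3). The GFPhi ratios, 3.38, 3.11 and 3.21, lay below the other 6. The inhibitor of ATP hydrolysis by the enzyme, Atp5if1, is listed as Atpif1 and so is not a member. Atpif1 was at 98.2, 110 and 129 TPM in GFPlo, 107, 122 and 135 in GFPmed, and 175, 191 and 182 in GFPhi, above every other sample. Its log2 fold change was 0.70 ± 0.12 with an adjusted p of 0.0171 in GFPhi against GFPlo, and the call held in 16 of 22 settings, being lost with median-of-ratios scaling (adjusted p = 0.205), without the mean-variance trend (0.0573), without GFPlo replicate 2 (0.075), GFPhi replicate 2 (0.0597) or GFPhi replicate 3 (0.0681), and without replicate 1 of any gate (0.104).

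Other ATP synthase subunits ran from -0.24 to 0.41 in log2 fold change, and none passed. Atp5j, the coupling factor 6 of the stalk, was named after its values were seen: it was at 159, 213 and 207 TPM in GFPlo, 175, 216 and 211 in GFPmed, and 224, 287 and 259 in GFPhi, a log2 fold change of 0.41 ± 0.14 with an adjusted p of 0.226. The ring genes Atp5g1, Atp5g2 and Atp5g3 changed by -0.24, 0.06 and -0.12, each with overlapping gates. Atp5o was listed at only 1.62 TPM, with 3066 reads in all and 58.2 exonic TPM, and its row joins 2 gene entries of the annotation.

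**Figure D3:**
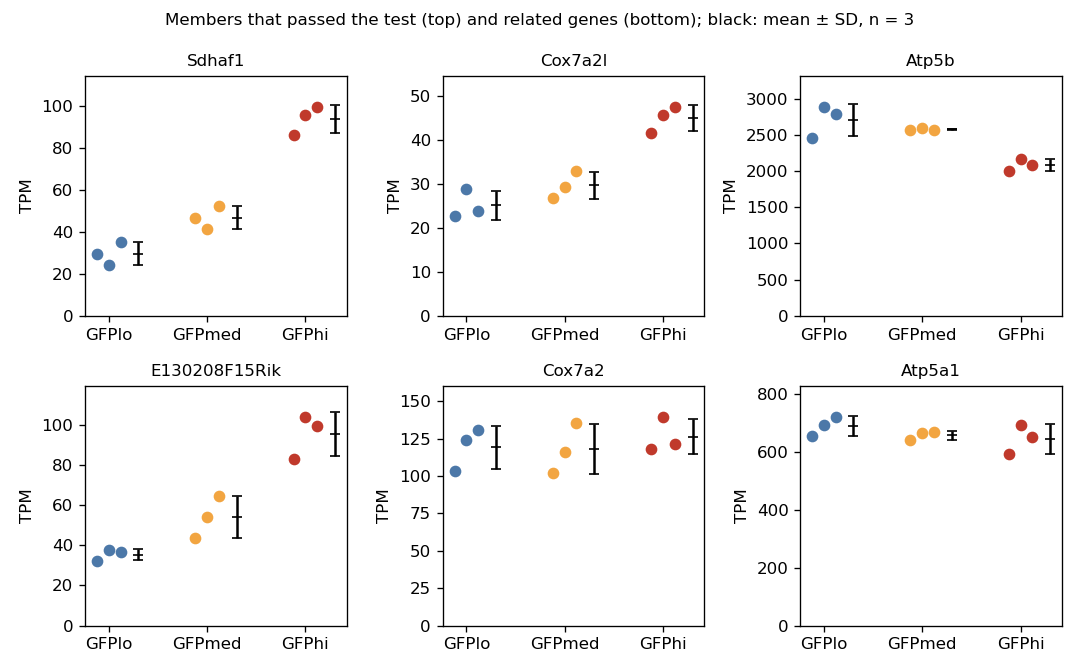
TPM in each of 9 samples for the 3 members that passed in GFPhi against GFPlo (top row) and for a related gene below each, with the mean and SD (n = 3) of each gate in black. GFPhi stands above the other gates for Sdhaf1, Cox7a2l and E130208F15Rik and below them for Atp5b, while the gates overlap for Cox7a2 and Atp5a1.

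The 12 assembly and associated factors held the other 2 calls. Sdhaf1, a small LYR-motif protein that helps insert iron-sulfur clusters into Sdhb, was at 29.5, 24.1 and 35.2 TPM in GFPlo, 46.8, 41.4 and 52.4 in GFPmed, and 86.5, 96.1 and 99.6 in GFPhi. The 3 gates did not overlap, and the order followed reporter brightness. The fold of the means in GFPhi over GFPlo was 3.18, the log2 fold change 1.65 ± 0.15 and the adjusted p 0.00101. Against GFPmed the log2 fold change was 0.99 with an adjusted p of 0.0192, and GFPmed against GFPlo gave 0.66 with an adjusted p of 0.485. The call in GFPhi against GFPlo held in 21 of 22 settings, the exception being the fit without replicate 1 of any gate (log2 fold change 1.71, adjusted p = 0.0619). The call against GFPmed held in 15 and was lost without any of the GFPmed replicates, GFPhi replicate 2 or GFPhi replicate 3, without replicate 1 of any gate, and with median-of-ratios scaling (adjusted p = 0.155).

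The reads counted for Sdhaf1 cannot be assigned to it with certainty. Sdhaf1 is an intronless gene at chr7:30321406-30323895 on the minus strand of GRCm38, and 69.6% of its bases lie within E130208F15Rik, a protein-coding gene at chr7:30321740-30323472 on the plus strand, with the coding sequences of both inside the shared stretch. The library kit does not keep strand. E130208F15Rik had 32.2, 37.5 and 36.6 TPM in GFPlo, 43.9, 54.3 and 64.7 in GFPmed, and 83.4, 104 and 99.8 in GFPhi, with a log2 fold change of 1.41 ± 0.15 and an adjusted p of 0.00256 in GFPhi against GFPlo. Both genes were lowest in GFPlo and highest in GFPhi, and which transcript rose cannot be told apart in these counts. E130208F15Rik was named after its values were seen. On the exonic scale Sdhaf1 was at 32.5 TPM.

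Cox7a2l, also called Scaf1, is named for a part in assembling complexes III and IV into a supercomplex. It was grouped here with the associated factors by its symbol. Whether it has that part in these mice was not tested. Cox7a2l was at 22.7, 28.9 and 23.8 TPM in GFPlo, 26.8, 29.3 and 33.0 in GFPmed, and 41.6, 45.8 and 47.4 in GFPhi. The GFPhi samples lay above the 6 others, and GFPlo and GFPmed overlapped. The fold of the means was 1.79, the log2 fold change 0.82 ± 0.12 and the adjusted p 0.0107, on 312 to 921 reads per sample. Against GFPmed the log2 fold change was 0.58 with an adjusted p of 0.0731. The call in GFPhi against GFPlo held in 19 of 22 settings and was lost with median-of-ratios scaling (0.90, adjusted p = 0.114), without GFPhi replicate 3 (0.78, adjusted p = 0.0531) and without replicate 1 of any gate (0.81, adjusted p = 0.102). The gene lies at chr17:83501918-83517330 on the minus strand and shares no exon with another annotated gene, while 16.6% of its 31-base words recur elsewhere, mostly in Gm6969. Cox7a2, the complex IV subunit with which it shares its name, was at 103, 124 and 131 TPM in GFPlo and 118, 140 and 122 in GFPhi, a log2 fold change of 0.09 ± 0.13. The ratio of Cox7a2l to Cox7a2 in deposited TPM, chosen after these values were seen, was 0.212 ± 0.026 in GFPlo, 0.253 ± 0.009 in GFPmed and 0.357 ± 0.031 in GFPhi (SD, n = 3).

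The remaining assembly factors did not pass. Sdhaf4, which also serves complex II, was at 7.41, 11.9 and 12.9 TPM in GFPlo and 13.6, 13.5 and 14.7 in GFPhi, with no overlap and an adjusted p of 0.497. Sdhaf2, which attaches the flavin to Sdha, was flat at 17.1 ± 0.11 TPM in GFPlo and 17.2 ± 1.29 in GFPhi. Ndufaf6, a complex I assembly factor, had 5.71, 5.45 and 4.99 TPM in GFPlo and 3.72, 3.02 and 4.41 in GFPhi, a log2 fold change of -0.45 ± 0.19 with an adjusted p of 0.349. These 3 were named after their values were seen. The 4 members annotated as processed pseudogenes, Ndufa11b, Ndufb4c, Ndufs6b and Cox6c2, rested on 30 to 44 reads each over 9 samples, and their intervals were correspondingly wide.

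The mitochondrially encoded subunits could be followed in 7 of 11 genes. mt-Nd1, mt-Nd2, mt-Nd4, mt-Nd5 and mt-Nd6 of complex I, mt-Cytb of complex III and mt-Co1 of complex IV had at least 263 reads in every sample. In contrast, mt-Nd3 had 13 to 43 reads, and mt-Co2, mt-Co3 and mt-Atp6 had 0 to 10. These 4 are the genes whose 31-base words occur almost wholly elsewhere in the annotated transcripts: 98.1% for mt-Nd3, 99.5% for mt-Atp6, 99.9% for mt-Co3 and 100% for mt-Co2. Their copies lie in a stretch of mitochondrial sequence inserted on chromosome 1, annotated as unprocessed pseudogenes. The counts of the study came from STAR, which counts a read for a gene only where it maps to 1 place. Whether reads of these 4 genes were left out for that reason was not tested, as the reads themselves were not analysed here. Among the 7 genes followed, mt-Co1 had 63.9% and mt-Nd4 62.8% of its words elsewhere too. Any effect on their levels, or on shares summed over the 11 genes, was not tested either.

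The first 60 bases of the mt-Co2 and mt-Nd3 coding sequences are shown beside their copies on chromosome 1. Capitals mark a base that differs (coordinates in GRCm38, sequences from GENCODE transcripts). 
mt-Co2, chrM:7013-7072, plus strand: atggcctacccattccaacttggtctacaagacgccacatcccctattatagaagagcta
Gm28661, chr1:24615506-24615565, minus strand: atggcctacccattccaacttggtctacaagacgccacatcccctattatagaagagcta
mt-Nd3, chrM:9459-9518, plus strand: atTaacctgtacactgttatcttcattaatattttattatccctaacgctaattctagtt
Gm28438, chr1:24613060-24613119, minus strand: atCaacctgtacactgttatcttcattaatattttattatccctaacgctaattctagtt
Over the 681 bases of Gm28661, mt-Co2 had 0 mismatches, as mt-Atp6 had over the 678 bases of Gm10925 and mt-Co3 over the 783 bases of Gm28437. mt-Nd3 had 1 mismatch over the 345 bases of Gm28438, T3C, counted from 1 at the first base of the gene. The 876 bases of Gm28439 matched mt-Nd4 without a mismatch, and mt-Nd4 is longer, at 1378 bases.

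**Figure D4:**
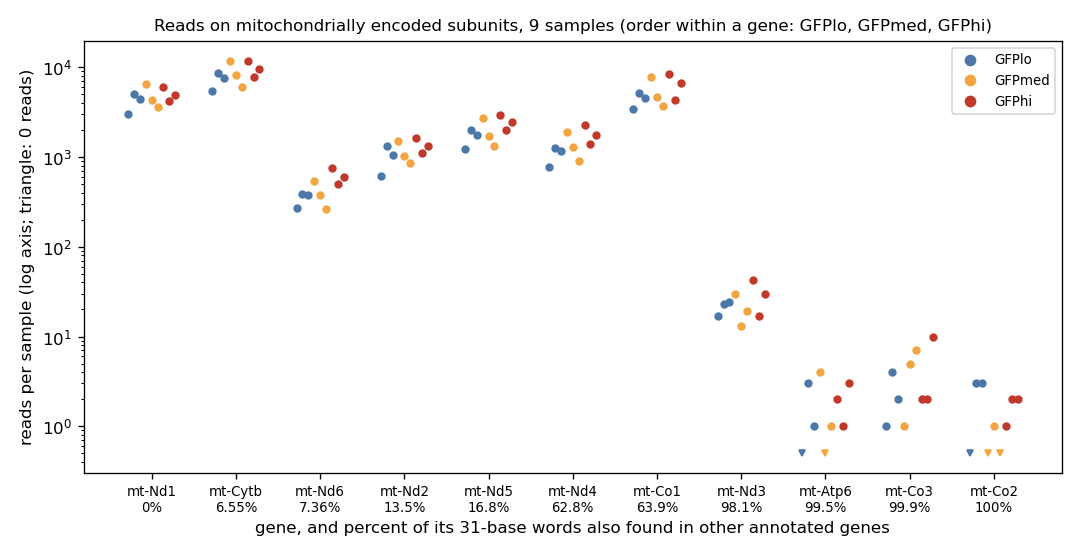
Reads on each of the 11 mitochondrially encoded subunits in each of 9 samples (log axis, triangles at 0 reads), ordered by the percent of 31-base words of the gene that also occur in other annotated genes. The 7 genes from mt-Nd1 to mt-Co1 hold 263 to 11769 reads per sample, and the 4 with at least 98.1% shared words hold 0 to 43.

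None of the 11 passed in any contrast by limma on all samples. Their median log2 fold change in GFPhi against GFPlo was 0.20 and 9 of 11 were above 0, and the values of mt-Co2, mt-Co3 and mt-Atp6 rest on 10 reads or fewer per sample. The median was 0.41 without GFPhi replicate 2, 0.07 without GFPhi replicate 3 and -0.001 without GFPlo replicate 1. GFPhi replicate 2 stood apart from the other GFPhi samples. mt-Co1 was at 1679, 2047 and 1949 TPM in GFPlo, 2026, 1962 and 1809 in GFPmed, and 2609, 1507 and 2596 in GFPhi, so that GFPhi held both the highest and the lowest values. mt-Cytb, at 4890, 3743 and 4933 TPM in GFPhi against 3633, 4663 and 4378 in GFPlo, showed the same low second replicate, and so did mt-Nd1, mt-Nd2, mt-Nd4 and mt-Nd5. mt-Rnr1 and mt-Rnr2, the ribosomal RNAs made from the same polycistronic transcript, together took 0.0897% and 0.0852% of the reads in GFPhi replicates 1 and 3 and 0.0483% in replicate 2.

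mt-Nd6, the only mitochondrial subunit transcribed from the opposite strand, was the 1 of the 11 (9.09%) whose GFPhi samples overlapped neither other gate. Of all genes, 8.26% had GFPhi wholly above GFPlo and 7.11% had it wholly above GFPmed. It was at 395, 455 and 490.5 TPM in GFPlo, 413, 464 and 387 in GFPmed, and 685, 527 and 690 in GFPhi, so every GFPhi sample lay above the 6 others. The log2 fold change in GFPhi against GFPlo was 0.50 ± 0.13 with an adjusted p of 0.0971, on 263 to 748 reads per sample. Without GFPhi replicate 2 the log2 fold change was 0.63 and the adjusted p 0.0352. Against GFPmed the log2 fold change was 0.58 ± 0.13 with an adjusted p of 0.0930, and without GFPhi replicate 2 it was 0.71 (0.0437). As annotated, mt-Nd6 shares 2.7% of its bases with mt-Nd5 on the other strand. The library kit does not keep strand. Reads of any RNA made from the other strand across mt-Nd6 would therefore be counted for it too, and their part was not tested. mt-Nd4 changed by 0.41 ± 0.16 and mt-Nd5 by 0.25 ± 0.14, neither passing, and mt-Nd1 by -0.05 ± 0.13.

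The mitochondrially encoded subunits took 0.229% ± 0.030 of all reads in GFPlo, 0.227% ± 0.011 in GFPmed and 0.258% ± 0.055 in GFPhi (SD, n = 3). By sample the share was 0.196, 0.253 and 0.239% in GFPlo, 0.219, 0.239 and 0.223% in GFPmed, and 0.292, 0.195 and 0.286% in GFPhi. The nuclear members, without the retrocopies, took between 0.764 and 0.928% of reads in any sample. The reads on mitochondrially encoded per nuclear member reads were 0.263 ± 0.011 in GFPlo, 0.267 ± 0.020 in GFPmed and 0.30 ± 0.07 in GFPhi, with GFPhi replicate 2 lowest of all samples at 0.220 and GFPhi replicate 1 highest at 0.348. The difference between gates was smaller than the spread within GFPhi.

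Replicates of a gate also differed among themselves. The median deviation from the 9-sample mean was lowest in replicate 1 of its gate for all 5 complexes' nuclear subunits, in GFPlo, in GFPmed and in GFPhi alike. Of the 106 members, 88 were lowest in replicate 1 among the GFPlo samples, 78 among GFPmed and 63 among GFPhi. In GFPlo replicate 1 the median was -0.26 for complex I and for complex III, -0.25 for complex IV, -0.16 for ATP synthase and -0.08 for complex II, against 0.05 to 0.16 in the other GFPlo samples. Reads on olfactory and vomeronasal receptors, which thymocytes are not known to express, were also most frequent in replicate 1, at 0.486% of reads in GFPlo, 0.366% in GFPmed and 0.479% in GFPhi against 0.225 to 0.329% in the other 6 samples. The part of that background in the low values of replicate 1 was not tested. Without replicate 1 of any gate 45 of 106 members had a log2 fold change above 0 in GFPhi against GFPlo, with a median of -0.03, and 0 passed by limma, where 178 genes passed as higher and 72 as lower.

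**Figure D5:**
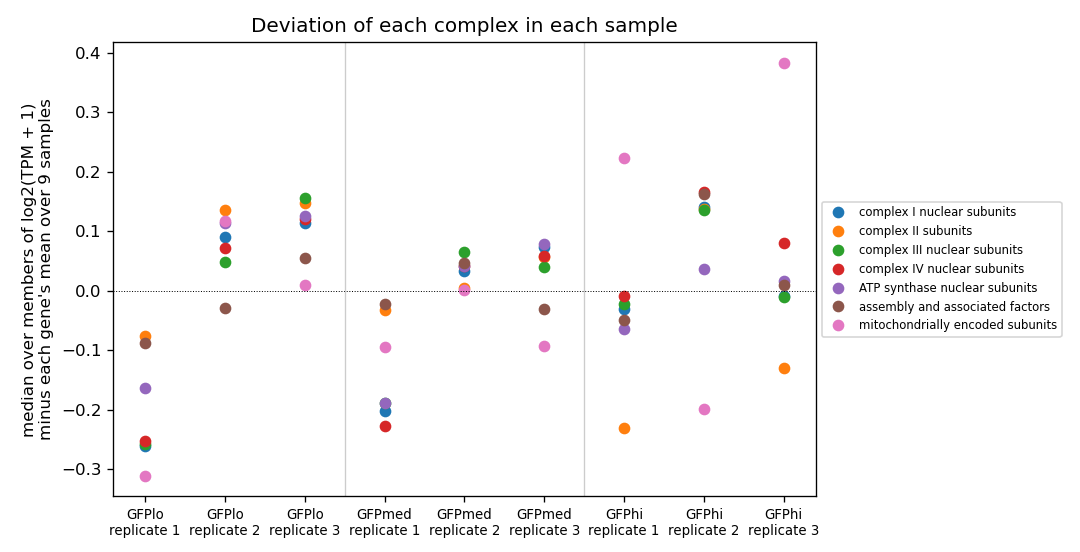
Median over the members of each complex of log2(TPM + 1) minus the mean of the gene over 9 samples, for each sample. The nuclear complexes are lowest in replicate 1 of each gate, down to -0.26 in GFPlo, while the mitochondrially encoded subunits are highest in GFPhi replicates 1 and 3, at 0.22 and 0.38, and at -0.20 in GFPhi replicate 2.

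The promoters of the nuclear members were searched for the letters of 5 factor sites, which the choice of members did not use. RefSeq windows of 250 bases before to 50 after the gene start (GRCm38.p6) were found for 76 nuclear members, in 81 windows. The letters of the NRF1 site, GCGCATGC on either strand, occurred in 14.8% of the members' windows and in 2.71% of all 32851 windows. NRF1 is a transcription factor long known to bind respiratory gene promoters. Those of YY1, AAGATGGC, occurred in 13.6% against 2.75%, those of the ETS factors that include GABP, CCGGAAGT, in 6.17% against 3.89%, and those of the estrogen-related receptors, TCAAGGTCA, in 2.47% against 0.423%. The NBRE letters AAAGGTCA, bound by Nr4a monomers, occurred in 0 of the 81 windows and in 1.51% of all windows. The letters searched for the last 2 both end in AAGGTCA. The windows with NRF1 letters belonged to 12 members in complexes I to IV, ATP synthase and the assembly factors. For the 4 of them with most exonic TPM and the letters before the start, 60 bases upstream are shown with the site in capitals, since all 4 hold the same letters.
Cox6a1, chr5:115349085-115349144, minus strand: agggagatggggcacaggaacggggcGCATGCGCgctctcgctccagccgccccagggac
Sdhb, chr4:140961191-140961250, plus strand: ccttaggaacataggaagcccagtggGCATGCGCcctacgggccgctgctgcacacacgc
Ndufa8, chr2:36049339-36049398, minus strand: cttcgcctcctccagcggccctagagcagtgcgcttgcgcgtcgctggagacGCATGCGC
Ndufa11, chr17:56717678-56717737, plus strand: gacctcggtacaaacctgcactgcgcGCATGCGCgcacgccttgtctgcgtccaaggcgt
In all 4 the bases in capitals are the site read on the other strand of the gene. They begin 160, 54, 8 and 58 bases before the start, in that order. In Cox6a1 and Ndufa11 the bases shown also hold GCGCATGC on the gene's own strand, overlapping the capitals. The median log2 fold change in GFPhi against GFPlo was -0.01 for the 12 members with NRF1 letters and 0.04 for the 64 without, and it was 0.09 for the 11 members with YY1 letters and 0.02 for the 65 without. A match of letters is no evidence of binding in these cells.

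Genes that serve the respiratory chain without carrying its symbols were compared in the same way, in GFPhi against GFPlo. Chchd10, a small protein of the intermembrane space, was at 5.03, 7.32 and 4.40 TPM in GFPlo, 12.1, 14.3 and 15.7 in GFPmed, and 82.9, 96.4 and 84.3 in GFPhi. The 3 gates did not overlap. The fold of the means was 15.7, the log2 fold change 3.78 ± 0.18 and the adjusted p 6.5e-05, and the call held in all 22 settings. None of the other 5 CHCHD proteins in the list passed, and 2.38% of all genes passed as higher.

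Another 4 of these genes passed as lower, each the only such gene of its list, where 1.51% of all genes did. In the order given below, their lists held 6, 7, 8 and 3 genes tested. Vdac1, the main channel of the outer membrane, fell by 0.53 on the log2 scale (adjusted p = 0.0129), with 40.5, 47.6 and 43.6 TPM in GFPlo and 28.7, 30.9 and 30.3 in GFPhi. Pprc1, a coactivator of NRF1 related to PGC-1, was at 103 ± 0.55 TPM in GFPlo and 72.6 ± 11.4 in GFPhi (adjusted p = 0.0435). Tmem186, a complex I assembly factor, was at 48.1 ± 3.34 and 33.2 ± 4.58 TPM (adjusted p = 0.0479), and Tmem70, which builds the ATP synthase ring, at 32.8 ± 2.56 and 24.2 ± 1.29 TPM (adjusted p = 0.0497). These calls held in 13, 7, 6 and 5 of 22 settings, in that order, and limma-voom with the size factors of the authors called none of the 4. In the 7 lists of electron carriers, complex III assembly, complex IV assembly, mitochondrial DNA and RNA machinery, citric acid cycle enzymes, mitochondrial ribosomal proteins and mitochondrial rRNA and tRNA, 0 of 157 genes tested passed by limma or by limma-voom with those size factors. An unadjusted p under 0.05 was found for 22 of them, where 13.8% of all genes had one. The lists differed in this, with 7 of 14 citric acid cycle enzymes and 4 of 15 genes of the DNA and RNA machinery. Mitochondrial ribosomal proteins held 5 of 76, and each other list held 1 or 2. Of the 14 citric acid cycle enzymes 6 had a log2 fold change above 0. Cycs, cytochrome c itself, was at 134, 188 and 153 TPM in GFPlo and 108, 155 and 124 in GFPhi, and Tfam, which packages mitochondrial DNA, at 31.5 ± 0.46 and 33.7 ± 3.55 TPM. These 2 were named after their values were seen, and neither passed.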

How the data were processed

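Bulk RNA-seq of 9 samples (SMART-seq v4, Nextera XT) was analysed from the deposited table. The authors trimmed the reads, mapped them with STAR 2.7.11b to GRCm38 with GENCODE vM25, removed duplicates and deposited TPM per sample and the mean normalized count signal per group from DESeq2 1.34.0. The deposited log2 fold changes, adjusted p-values and call scores (-1, 0 or 1, and their number) of the authors' own comparisons were not used. TPM were transformed as log2(TPM + 1), and genes with TPM of at least 1 in 3 samples were fitted in 1 model of the 3 gates with limma 3.58.1 (R 4.3.3), empirical Bayes with a trend, and Benjamini-Hochberg adjustment over all genes. Reads per gene were solved from the TPM and the authors' group means. All values of 41578 genes came out whole within 0.02 reads, 400 genes could not be solved, and the reads served limma-voom and exonic TPM (lengths from GENCODE vM21). Genes were placed in complexes by symbol, after seeing the data.

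Named genes, beside those said to be chosen after their values were seen, were the members that passed in any contrast, all mitochondrially encoded members, the member with most exonic TPM per complex, isoform families, the 3 nearest the limit on either side, Atp5if1, and list genes that passed. The members and the gene lists were chosen with earlier results of these data known. Without counts from a stranded protocol, overlapping genes on opposite strands cannot be separated. Intervals are 95% confidence intervals of the model.

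The fit was tested on simulated reads for GFPhi against GFPlo, with 50 genes at each fold; the draws were respecified after earlier recoveries had been seen. Of genes in the middle 80% of the members' read levels, changes of 2-fold and 0.5-fold were recovered for 26 and 27 of 50 when the other folds were 1.5 and 0.7 (recovered for 2 and 1), and for 33 and 27 when they were 4 and 0.25 (49 and 47). In the middle 50% the same 2 changes gave 44 and 34. Of all calls, 18.8%, 12.8% and 11.0% in these 3 draws were of unchanged genes, above the nominal level.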

Additional observations from a re-analysis of the deposited data

How the results depend on the processing

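The alternatives were other pseudocounts, filters, scalings, models and lengths, the replicate block, and each library left out. In GFPhi against GFPlo, 2 members higher became 1 with median-of-ratios scaling, 1 with the study's fold limit, 4 in limma-voom with library totals and 0 with replicate 1 of all gates left out, and 1 to 3 with 1 library left out (3 without GFPhi replicate 2, 1 without GFPhi replicate 3). The 1 lower became 0 with median-of-ratios scaling, with only the 2 groups compared, without the trend, with the fold limit, in limma-voom with the authors' size factors and with replicate 1 of all gates left out, and 0 to 1 with 1 library left out. In GFPhi against GFPmed, 1 higher became 2 with TPM of at least 5 or exonic length, 0 with median-of-ratios scaling, the fold limit or with replicate 1 of all gates left out, and 5 in limma-voom with library totals. With 1 library left out it was 0 to 1. The count of 0 lower became 1 with quantile normalization and in limma-voom with library totals, and 0 to 1 with 1 library left out. GFPmed against GFPlo gave 0 throughout.

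The median log2 fold change of the assembly factors, 0.06, became 0.14 with median-of-ratios scaling and 0.16 in limma-voom with the authors' size factors; that of the mitochondrially encoded subunits, 0.20, became -0.0725 with replicate 1 of all gates left out. Their share, 0.229, 0.227 and 0.258% of reads by gate, was 1.13, 1.13 and 1.24% of TPM. The cause of the other changes was not tested. Whether the replicate numbers pair the samples is not settled. Same-numbered samples' deviations correlated at 0.012 to 0.225 (9 pairs, mean 0.061). Different-numbered samples' deviations correlated at -0.185 to 0.148 (18 pairs, mean -0.030). Replicate 1 had the low medians in every gate, and the main fit holds no term for the replicate number. With the replicate block 3 members were higher and 1 lower in GFPhi against GFPlo. Of 1963 values of 30 named members under alternatives, 1931 stayed on their side of the threshold, 23 lost and 9 gained a call. No called value changed sign, and 138 uncalled values did. Fits on the reads left out the 400 genes that could not be solved. Depth limits the 3 mitochondrial genes with at most 10 reads per sample and the 4 retrocopies. Results without replicate 1, with library totals and with exonic length were chosen after seeing the data.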
